A study of Homo sapiens with 4 samples.

Results

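The genes described here are 6 aldo-keto reductases of the AKR1 family, AKR1A1, AKR1B1, AKR1B10, AKR1C1, AKR1C2 and AKR1C3, measured by RNA sequencing in HT29, an established human colon cancer cell line. They were chosen by gene symbol and are 6 of the 53617 genes in the deposited tables, with 48 of the 168036 transcript entries. The HT29 cells received by lipid transfection either a miR-23b precursor, which raises that microRNA, the control of the precursor, an antimir, which blocks miR-23b, or the control of the antimir. All 4 groups received 50 nM (written "50nm" in the labels), and RNA was isolated after 48 h. The labels also give 90% confluency, 5% serum and a medium change at 24 h for all 4 groups. Each group is 1 library, so no value has a replicate, no test was made here, and every difference compares 2 libraries. The precursor and its control stand in 1 table, and the antimir and its control in another. The tables were made separately, so differences were taken within a table, and levels set side by side across them may differ in scale.

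Aldo-keto reductases fold into a barrel and use NADPH to reduce aldehydes and ketones to alcohols. AKR1A1, aldehyde reductase, is a widely expressed enzyme of general aldehyde reduction. AKR1B1, aldose reductase, opens the polyol pathway by reducing glucose to sorbitol, and AKR1B10, its close relative, reduces retinaldehyde and dietary aldehydes and is a gene of the intestinal epithelium. The AKR1C enzymes are hydroxysteroid dehydrogenases that lie side by side on chromosome 10. AKR1C1 inactivates progesterone, AKR1C2 inactivates dihydrotestosterone, and AKR1C3 makes testosterone from androstenedione and reduces prostaglandins. Several of them also reduce the ketone groups of anthracycline drugs, and AKR1B10 and the AKR1C genes are known targets of the transcription factor NRF2.

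The sequences below matter for reading the values, because AKR1C1, AKR1C2 and AKR1C3 are near copies of each other. Over the 972 coding bases of each, AKR1C1 and AKR1C2 differ at 19 positions (98% identical), AKR1C1 and AKR1C3 at 83 (91.5% identical), and AKR1C2 and AKR1C3 at 87 (91%). The stretch from coding base 73 to 162, which holds 10 of the 19 differences between AKR1C1 and AKR1C2, is printed from the GENCODE 29 transcripts, with capitals at each position where any of the 3 differ.
AKR1C1: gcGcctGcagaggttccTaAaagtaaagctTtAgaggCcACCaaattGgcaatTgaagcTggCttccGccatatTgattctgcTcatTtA
AKR1C2: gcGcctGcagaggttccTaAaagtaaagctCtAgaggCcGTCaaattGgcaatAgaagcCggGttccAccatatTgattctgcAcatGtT
AKR1C3: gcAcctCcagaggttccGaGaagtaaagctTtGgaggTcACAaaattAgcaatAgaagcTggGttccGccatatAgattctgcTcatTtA
Outside such stretches, the last 189 coding bases (784 to 972) of AKR1C1 and AKR1C2 are identical. A read from there cannot be assigned to 1 of the 2 genes by its sequence. The other members are further apart. AKR1B1 and AKR1B10 share 76.8% of aligned coding bases, and AKR1A1 shares 56.9% to 62.6% with each of the others.

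To show how much of each transcript could be mixed up in counting, every window of 50 and of 100 bases was looked up in all GENCODE 29 transcripts of other genes. For the coding transcript AKR1A1-201, 0% of windows of either size occurred elsewhere. For AKR1B10-201, 17.4% of 50-base windows and 2.01% of 100-base windows did, with AKR1B15 as the main partner. For AKR1C2-202 the shares were 59.4% and 38.1%, and for AKR1C1-203 they were 46.5% and 11.9%, with each other's gene as the main partner. AKR1C3-202 had 23% and 9.74%. The values of AKR1C1 and AKR1C2 are therefore uncertain as single genes, and their sum is given beside them. Read length and the handling of reads with several matches are not given in the sources used here.

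**Figure D1:**
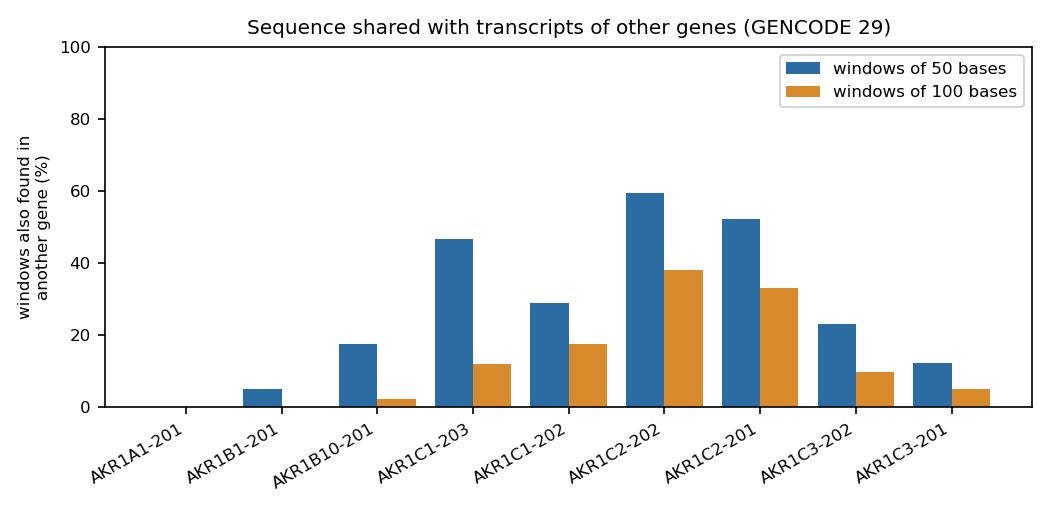
Share of sequence windows (y axis, percent) of 9 member transcripts (x axis) that also occur in a GENCODE 29 transcript of another gene, for windows of 50 and of 100 bases. AKR1A1-201 shares none, and AKR1C2-202 shares most, at 59.4% and 38.1%.

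The labels describe a search for mRNA targets of miR-23b, so the members' transcripts were searched for its seed match. The mature microRNA is printed with its seed, bases 2 to 8, in capitals, from RefSeq (GRCh38.p14, chr9:95085265-95085287, plus strand).
miR-23b-3p: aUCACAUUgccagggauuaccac
The 7-mer complementary to the seed, AATGTGA on the transcript strand, occurred in the longest 3′ UTR of 18% of 19576 protein-coding genes. In the longest 3′ UTR of AKR1A1, AKR1B1, AKR1B10 and AKR1C3 it was not present. AKR1C1 and AKR1C2 each held 2 matches, all 4 followed by A (an 8-mer that 8.54% of genes hold). These shares over all genes do not account for length. The 3′ UTR searched was longer than that of 95% of genes for AKR1C1 and of 78.1% for AKR1C2. The sites are printed with capitals at the 7-mer, in GRCh38 coordinates, on the plus strand for AKR1C1 and the minus strand for AKR1C2.
AKR1C1 at chr10:4979353-4979382: tagaagatcacAATGTGAactctgcatctc
AKR1C2 at chr10:4988362-4988391: tggaagatcatAATGTGAactctgcatctc
AKR1C1 at chr10:4979914-4979943: gacttcttgtaAATGTGAacatatggtaaa
AKR1C2 at chr10:4987799-4987828: gacttcttgtaAATGTGAacatatggtaaa
The second pair is the same 30 bases in both genes. A match is a description of the letters and not a shown site of binding.

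Among the transcripts searched, all 4 matches lie in 1 long transcript of each gene, and those 2 transcripts were hardly listed in HT29. AKR1C1-202, with a 3′ UTR of 5541 bases, was at 0.103 FPKM (mapped fragments divided by transcript length and by library depth) with the precursor and 0.152 with its control, and at 0.184 with the antimir and 0.126 with its control. It made up 0.766% to 2.43% of the summed FPKM of AKR1C1. AKR1C2-201, with a 3′ UTR of 2596 bases, was at 0.0657, 0.19, 0.271 and 0.187 FPKM in the same order, or 0.915% to 8.53% of AKR1C2. Both long transcripts had a lower FPKM in the precursor library than in its control and a higher FPKM in the antimir library than in its control. At these levels the authors' table tested neither. As a share of its gene, AKR1C2-201 was lower with the antimir (7.64%) than with its control (8.53%), while AKR1C1-202 was higher (2.43% against 1.87%). AKR1C1-201, without the 7-mer in its 3′ UTR, was also lower with the precursor (0.0602 against 0.177 FPKM). Of 50-base windows, 52.2% of AKR1C2-201 and 28.7% of AKR1C1-202 occur in other genes. No other coding transcript of the members whose coding sequence ends in a stop codon in GENCODE 29 held the 7-mer in its 3′ UTR. The search did not cover AKR1C1-203, which made up 71.7% to 86.7% of AKR1C1. It also left out 2 coding transcripts of AKR1A1, AKR1A1-203 (11.7% to 13.7% of the gene) and AKR1A1-209 (4.57% to 19.7%). Also not covered were the noncoding models and the transcripts that GENCODE 29 does not list. These are ENST00000407674.1 (39.4% to 64.3% of AKR1C2), ENST00000434459.2 (6.75% to 11.3% of AKR1C1) and ENST00000494491.1 of AKR1B1. Whether any of the transcripts left out hold the 7-mer was not tested. GENCODE 29 was matched by transcript identifier, and its models may differ in length from those the authors used.

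As a check of the label, 10 of 12 markers of intestinal epithelium, such as EPCAM, KRT20 and VIL1, were at an FPKM of at least 1 in all 4 libraries. CDX1 was below 1 in all 4. CEACAM5 was at 1.78 and 1.28 FPKM in the precursor pair and at 0.785 and 0.979 in the antimir pair. The summed level of the list ran from 5465 to 11976 FPKM, higher in the precursor pair. Of the markers of other cells, LYZ, which intestinal epithelium also makes, was at 3354 to 3685 FPKM, 10 were below 1 in all 4 libraries, and PECAM1 had no value.

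In HT29, 5 of the 6 genes were expressed and 1 was close to absent. AKR1A1 was the highest in every library, AKR1C3 the next and AKR1B10 the third, while AKR1B1 was near 0 throughout. The order AKR1A1, AKR1C3, AKR1B10, AKR1C1, AKR1C2, AKR1B1 was the same in all 4 libraries. With 1 library per group, no spread is available to say which neighbours in that order differ.

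AKR1A1 was at 175 FPKM with the precursor and 171 with its control, and at 124 with the antimir and 126 with its control, summed over 13 transcripts. The locus lies on chromosome 1 at 46016214 to 46035721 in hg19. Most of that sum came from short transcripts that GENCODE 29 does not class as protein-coding, and because FPKM divides by length, a short transcript reaches a high value with few reads. Its protein-coding transcripts summed to 60.6, 59.4, 49.7 and 60.5 FPKM, or 34.7% to 47.9% of the total. By that sum AKR1A1 was still the highest member in each library, though with the antimir AKR1C3 followed at 48.5. Multiplied by transcript length, which gives each transcript's share of fragments in place of its density, AKR1A1 was at 109, 108, 92 and 96.4 (FPKM times kilobases) and AKR1C3 at 55.8, 56.9, 57.6 and 47.5 in that order.

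AKR1C3 was at 50.9 FPKM with the precursor and 49.5 with its control, and at 49.4 with the antimir and 40.6 with its control. The precursor pair lay close together, and in the antimir pair the control was the lower. Its locus is given as chromosome 10, 5077548 to 5149878, in hg19. Unlike AKR1A1, nearly all of its level was protein-coding, at 94.7% to 98.7%.

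AKR1B10 was at 32.7 FPKM with the precursor and 36.9 with its control, and at 26.6 with the antimir and 22.8 with its control. Its 1 protein-coding transcript, AKR1B10-201, was at 19.6, 20.5, 23.1 and 20.5 FPKM. The larger part of the gap between the 2 pairs of libraries therefore lay in the other transcripts, which held 13.1 to 16.4 FPKM in the precursor pair and 2.28 to 3.54 in the antimir pair. AKR1B10 lies on chromosome 7, 134212343 to 134226160, in hg19.

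AKR1C1 was at 13.5 FPKM with the precursor and 13.7 with its control, and at 7.59 with the antimir and 6.74 with its control. AKR1C2 was at 7.18, 6.61, 3.55 and 2.2 FPKM, of which 36.5%, 33.8%, 39.9% and 60.6% came from transcripts that GENCODE 29 classes as protein-coding. Nearly all of the rest was ENST00000407674.1, at 4.45, 4.25, 2.12 and 0.864 FPKM. GENCODE 29 does not list that transcript, so whether it is coding is not known here. For AKR1C1 the part classed as protein-coding was 73.5% to 89.2%, with the unlisted ENST00000434459.2 counted outside it. Summed, the near copies were at 20.6, 20.3, 11.1 and 8.94 FPKM. The loci given on chromosome 10 are 4934795 to 5025475 for AKR1C1 and 5029966 to 5060207 for AKR1C2, in hg19.

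AKR1B1 was at 0.246, 0.0522, 0.402 and 0.0957 FPKM in the same order, below 1 in every library. Of its 15 transcripts none was tested in the authors' table, and its coding transcript AKR1B1-201 was listed at 0 in 3 libraries and at 0.0588 in the precursor library. AKR1B1 (chromosome 7, 134127126 to 134144036) and AKR1B10 are neighbours on that chromosome, and HT29 listed the one near 0 and the other at 22.8 FPKM or more.

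**Figure D2:**
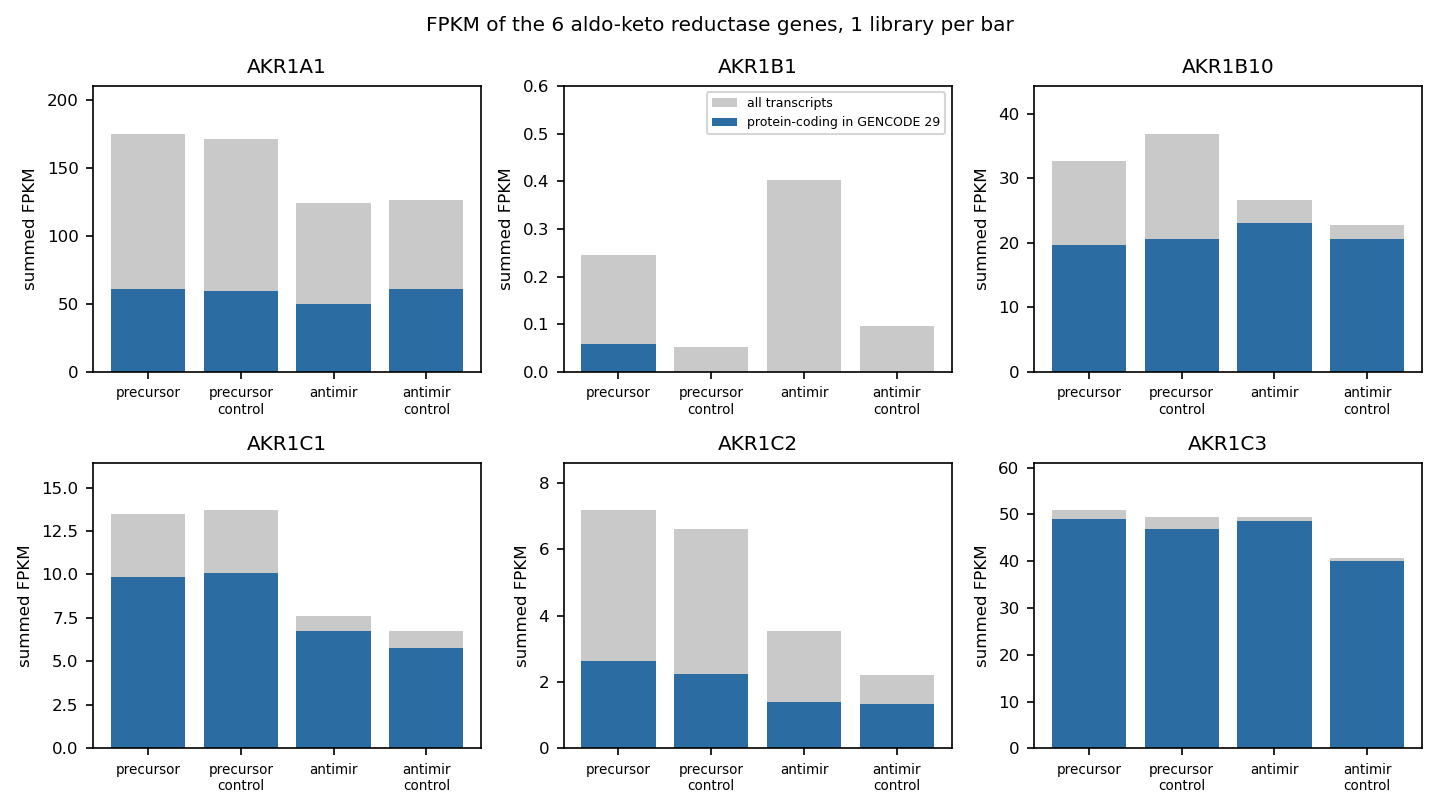
Summed FPKM (y axis, from 0, with its own scale in each panel) of the 6 genes in the 4 libraries (x axis, 1 library per bar), with the part from protein-coding transcripts in blue. AKR1B1 reaches at most 0.402, and the protein-coding part runs from 33.8% in AKR1C2 with the precursor control to 98.7% in AKR1C3 with the antimir control among the other 5 genes.

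Within a library, ratios between members do not depend on how the tables were scaled. For AKR1C1 and AKR1C2 over AKR1C3 the gap between the 2 pairs of libraries was larger than that within a pair, while the other ratios did not separate the pairs in this way. AKR1C1 stood at 0.264 of AKR1C3 with the precursor and 0.276 with its control, but at 0.154 with the antimir and 0.166 with its control. AKR1C2 stood at 0.141 and 0.134 of AKR1C3 in the precursor pair, and at 0.0717 and 0.054 in the antimir pair. AKR1B10 stood at 0.643 and 0.746 of AKR1C3 in the precursor pair and at 0.539 and 0.56 in the antimir pair. AKR1A1 stood at 3.43 and 3.46 times AKR1C3 in the precursor pair, and at 2.51 with the antimir against 3.11 with its control. The number of all genes at an FPKM of at least 1 also differed, at 16809 and 16718 in the precursor pair against 14120 and 13908 in the antimir pair. The part of such library differences in these ratios was not tested.

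The first comparison asked whether raising miR-23b went with other levels of these enzymes. The differences were small. AKR1A1 differed by 0.00, AKR1C3 by 0.02, AKR1C1 by -0.04, AKR1C2 by 0.08 and AKR1B10 by -0.19. These are differences of log2(FPKM + 1), precursor library minus its control, centred on the median of all genes that averaged at least 1 FPKM in the table, a scale that understates the change of low genes. AKR1B1 did not reach that filter. Of the 5 members that did, none was 1.5-fold higher or lower on this scale, where 6.68% of 16982 genes were (3.36% higher and 3.32% lower). Of protein-coding genes alone, 1.15% were. Their median was 0.00, beside 0.00 for all genes, whose quartiles were -0.12 and 0.12. AKR1B10 was the 1 member outside the quartiles, and its coding transcript alone differed by -0.10. The near copies AKR1C1 and AKR1C2 summed differed by 0.00.

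The authors' deposited table, which tests 1 library against 1 library, called 2 of 26 tested member transcripts, both lower in the precursor library, where 6.66% of 78175 tested transcripts were called lower, 6.91% higher and 13.6% either way. The members' calls are thus near the background for lower calls and below that for calls either way. The first called transcript was AKR1C3-201, the longer coding transcript of AKR1C3 with a 3′ UTR of 183 bases, at 7.92 against 11 FPKM (q = 0.00772 in the authors' deposited table). The shorter model AKR1C3-202, which also has 972 coding bases but no 3′ UTR in GENCODE 29, was at 41 against 35.9 FPKM and was not called (q = 0.264 there). AKR1C3-201 thus made up 15.6% of the gene with the precursor and 22.2% with its control, while the gene's sum stayed level.

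The second called transcript was AKR1B10-202, a processed transcript without an annotated reading frame, at 6.61 against 10.2 FPKM (q = 0.0109 in the authors' deposited table). The coding transcript AKR1B10-201 was at 19.6 against 20.5 FPKM (q = 0.78 there). Most of the gap of AKR1B10 in the precursor comparison was in this noncoding model. The entry that carries the gene identifier of AKR1A1 in place of a transcript was also called lower, at 0.217 against 0.303 FPKM (q = 0.0263 in the authors' deposited table). Of all tested entries of that kind 23% were called lower in this table, against 0.0342% in the antimir table, so the call stands beside a high background.

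The second comparison asked the same with miR-23b blocked. Here 4 of the 5 members past the filter were higher in the antimir library by 0.19 to 0.55, and AKR1A1 was level. AKR1C2 was higher by 0.55, AKR1C3 by 0.31, AKR1B10 by 0.26 and AKR1C1 by 0.19, and AKR1A1 differed by 0.01 (-0.03 without centring). None of the 5 passed 1.5-fold on this scale, where 7.97% of 14190 genes did (5.07% higher and 2.9% lower) and 2.63% of protein-coding genes did. As a plain ratio of FPKM, without the added 1 and the centring, AKR1C2 was at 1.61. The median of the 5 members was 0.26, beside 0.00 for all genes, whose quartiles were -0.14 and 0.15. The 3 AKR1C genes summed were at 60.6 FPKM against 49.6 (0.32).

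AKR1C3 carries most of that sum, and both of its coding transcripts were higher in the antimir library. AKR1C3-202 was at 37.1 against 30.6 FPKM and AKR1C3-201 at 11.4 against 9.53, so their shares of the gene stayed close, at 75% against 75.3% and 23.1% against 23.5%. AKR1B10-201 was at 23.1 against 20.5 FPKM. AKR1C1-203, which leads AKR1C1, was at 6.58 against 5.63 FPKM.

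The difference of AKR1C2, the largest of the members, rests on low values of 1 transcript. ENST00000407674.1, which GENCODE 29 does not list, was at 2.12 FPKM with the antimir and 0.864 with its control (p = 0.00287, q = 0.31 in the authors' deposited table). AKR1C2-203 was at 0.963 against 1.13 FPKM, in the other direction. With transcripts classed as protein-coding alone AKR1C2 differed by 0.09, and with FPKM multiplied by transcript length by 0.22. Both of these leave out the unlisted transcript. The authors' deposited table called 0 of 23 tested member transcripts, where 0.414% of 62029 were called either way (0.243% higher and 0.171% lower).

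In AKR1A1, single transcripts differed between the tables by more than the gene's sum did, relative to their levels. AKR1A1-201, its full coding transcript, was at 0.00271 FPKM with the precursor and 0.899 with its control, but at 19.7 with the antimir and 26.1 with its control. AKR1A1-209, a short coding model of 516 bases, was at 34.5 and 33 FPKM in the precursor pair and at 5.67 and 10.3 in the antimir pair. For both transcripts the gap between the tables was larger than the gap between a treated library and its own control. Summed over protein-coding transcripts, AKR1A1 was at 49.7 FPKM in the antimir library against 60.5 in its control (-0.24).

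**Figure D3:**
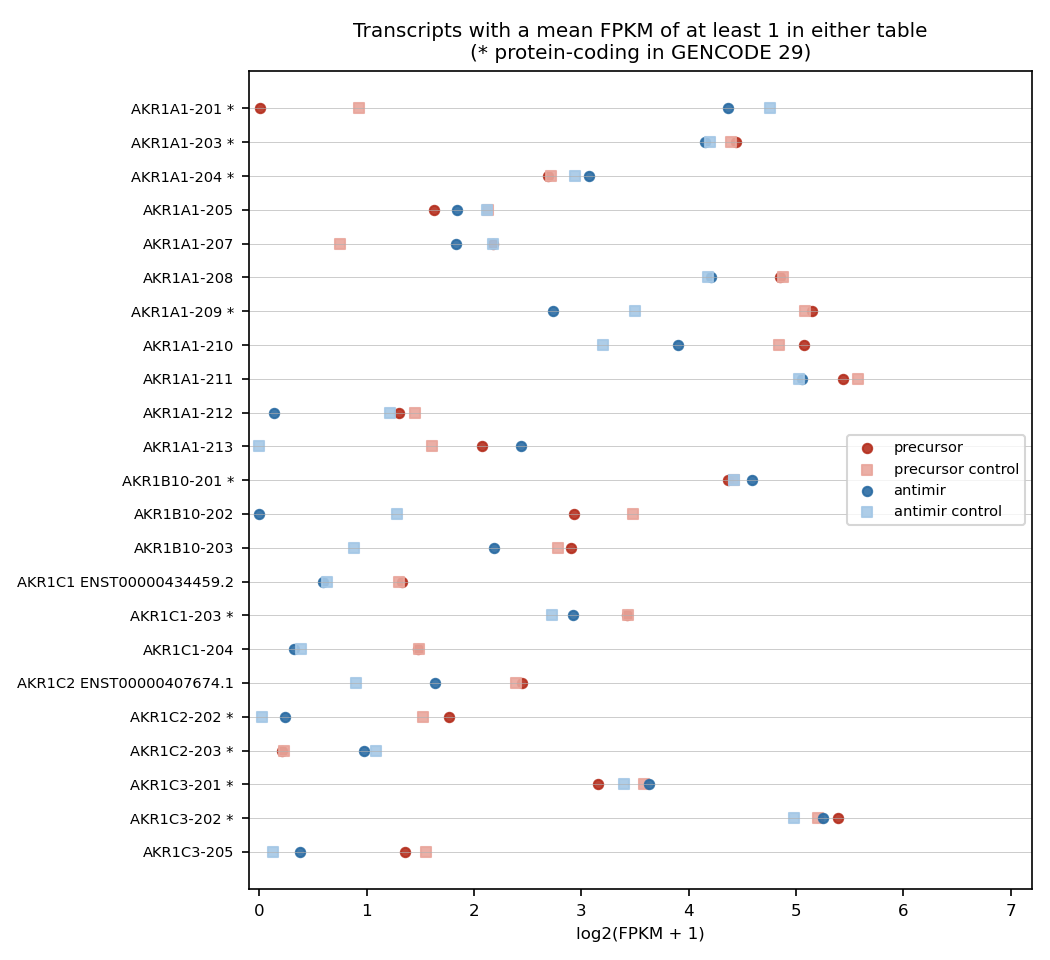
Levels, as log2(FPKM + 1) on the x axis, of the 23 member transcripts with a mean FPKM of at least 1 in either table (y axis), with 1 point per library and an asterisk for protein-coding models. AKR1C3-202 and AKR1B10-201 lie close together in the 4 libraries, while AKR1A1-201 is near 0 in the precursor pair and at 19.7 and 26.1 FPKM in the antimir pair.

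Among other genes of the same superfamily, 12 of 14 listed had entries. AKR7A2, an aldehyde reductase, was at 78.6 FPKM with the precursor and 71.8 with its control, and at 44.2 with the antimir and 52.9 with its control. AKR7A3 was at 24.8, 22.1, 20.5 and 18.7. AKR1C4, the liver form next to the AKR1C members, was at 5.1 and 5.53 in the precursor pair and below 1 in the antimir pair. AKR1B15, which shares sequence with AKR1B10, was at 2.47 and 2.49 FPKM in the precursor pair and listed at 0 in both antimir libraries. AKR1E2 was lower in both treated libraries than in their controls, at 2.36 against 4 FPKM (-0.59) with the precursor and 2.11 against 3.49 (-0.49) with the antimir. KCNAB2, a potassium channel subunit of this fold, was at 4.86 FPKM in the antimir library against 2.88 (0.63). AKR1E2 with the precursor and KCNAB2 with the antimir were the only ones of these family genes past both the filter and 1.5-fold.

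**Figure D4:**
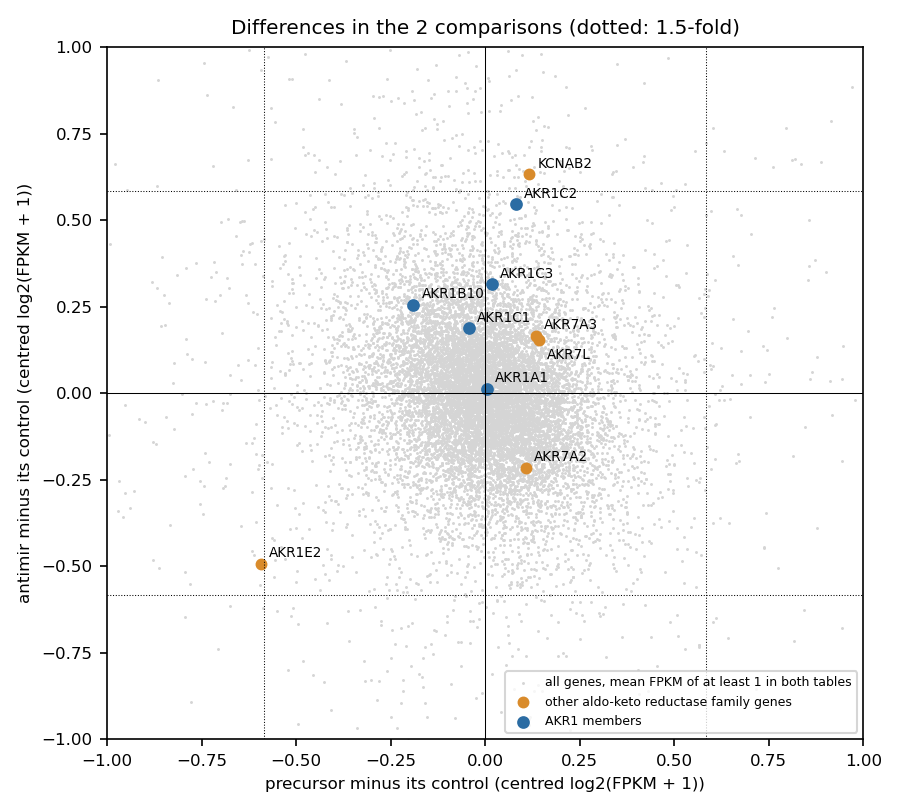
Centred differences of log2(FPKM + 1) in the precursor comparison (x axis) and the antimir comparison (y axis) for 13757 genes past the filter in both tables (gray, 573 of them outside the axes), the AKR1 members (blue) and other family genes (orange), with dotted lines at 1.5-fold. The members lie between -0.19 and 0.08 on the x axis and, except AKR1A1, between 0.19 and 0.55 on the y axis.

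Genes that work beside these enzymes were read from lists, as counts. In the retinoid list, 14 of 23 genes passed the filter in the precursor comparison, with 10 above 0, 4 below and a median of 0.13, and in the antimir comparison 7 of 14 lay above 0 with a median of -0.01. RDH10, which makes the retinaldehyde that AKR1B10 reduces, was at 21.1 against 16.6 FPKM with the precursor (0.31) and 12.6 against 16 with the antimir (-0.28). Steroid enzymes had a median of 0.04 over 13 genes with the precursor and -0.11 over 12 with the antimir, where 4 lay above 0 and 8 below. HSD17B7 was at 13 against 16.4 FPKM (-0.34) and at 5.04 against 4.11 (0.28). None of the genes of these 2 lists that passed the filter was past 1.5-fold in either comparison.

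Prostaglandin genes had a median of -0.02 with the precursor and -0.09 with the antimir, over 9 genes each. PTGS1, a cyclooxygenase, was at 12.3 against 8.7 FPKM with the precursor (0.43) and 6.7 against 8.07 with the antimir (-0.20). With the antimir, PTGS2 (-0.28) and HPGD (-0.25) differed by more than PTGS1. Both were lower with the precursor too (-0.17 and -0.10). Of 7 polyol and fructose genes 5 passed, with medians of 0.08 and -0.15. The largest differences among those that passed were HK2 with the precursor (0.24) and SLC2A1 with the antimir (-0.24). SORD, which follows AKR1B1 in the polyol pathway, was at 65.4 against 67 FPKM in the precursor pair (-0.06). In the antimir pair SORD was at 28.9 against 33 FPKM (-0.15), although AKR1B1 itself was near 0 in all libraries.

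Other carbonyl-reducing genes had medians of 0.00 and 0.06 over 13 genes. Of these, DHRS2, a short-chain reductase, was at 19.6 FPKM with the antimir and 4.86 with its control (1.85), the 1 gene of this list that passed the filter and was past 1.5-fold. It was at 5.73 against 6.53 in the precursor pair (-0.18). With the precursor, ADH1C had the largest difference of this list among genes past the filter, at 2.72 against 4.06 FPKM (-0.47). ADH1C was also lower with the antimir, at 1.5 against 2.37 FPKM (-0.39). The list of NRF2, its partners and NADPH supply had medians of 0.05 (12 of 16 above 0) and -0.01 (8 of 16). NFE2L2, which encodes NRF2, was at 121 against 123 FPKM with the precursor (-0.05), and differed by -0.03 with the antimir. NQO1, a widely used readout of NRF2, was at 746 against 729 FPKM (0.01) and 680 against 668 (0.06). GCLC had the largest difference of the list with the precursor, at 78.4 against 61.9 FPKM (0.31), and was at 44 against 43.2 with the antimir (0.06). In the antimir pair GCLM was at 21.3 against 16.5 FPKM (0.38), HMOX1 at 3.75 against 2.86 (0.34), and SLC7A11, the cystine carrier, was at 12.2 against 19.8 FPKM (-0.62).

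The genes with the differences most like those of AKR1B10 (-0.19 and 0.26), among 6853 other protein-coding genes at a mean FPKM of at least 10 in both tables, were SCOC, MT1E and BOLA3. For the AKR1C genes summed (0.01 and 0.32) they were RWDD4, HIST1H2BK and NCAPH. Likeness was the larger of the 2 gaps between centred log2 differences, 0.011 or less for these genes, and rests on 2 differences from 4 libraries. Within a gap of 0.05 lay 78 genes for AKR1B10 and 61 for the AKR1C genes, so likeness of this kind is common.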

How the data were processed

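RNA sequencing values of 4 HT29 libraries came in 2 tables. Per the submitters' processing notes, bcl2fastq 1.8.3, TopHat2 2.0.11, Cufflinks 2.2.0, Cuffdiff and hg19 were used; settings and annotation: not given in the sources used here. Deposited values are FPKM per transcript, and per the file headers each has the authors' p-value and q-value from 1 library against 1 library. FPKM carries no counts, so depth is unknown and no interval is given. The library named with a final N was taken as the control, the only other library of its table.

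Entries that failed were left out (no member had one), and a gene's FPKM was the sum of its transcripts. Entries with a gene identifier were used only for genes without transcripts. Differences of log2(FPKM + 1) were centred over genes at a mean FPKM of at least 1. The median removed was 0.022 in the precursor and -0.038 in the antimir comparison. Of the 48 member transcripts 45 matched GENCODE 29 by identifier, and hg19 loci are printed as the files give them, apart from GRCh38 coordinates. Sequence windows were compared on the transcript strand. The 3′ UTR searched was the longest of each gene. The sums and the 1.5-fold counts were run on simulated data with fixed fold changes and no noise, a check of the arithmetic only. Python 3.11.15, pandas 2.3.3 and Biopython 1.88 were used.

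The members and lists were chosen with earlier results of these data known. All 6 members are named, with transcripts at a mean FPKM of at least 1 or called by the authors, other family genes, and up to 3 genes of each list with the largest differences. NFE2L2 and NQO1 were named after their values were seen.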

Additional observations from a re-analysis of the deposited data

How the results depend on the processing

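The median difference of the members kept its size under 10 alternatives in each comparison, from -0.05 to 0.03 with the precursor and from 0.20 to 0.27 with the antimir, where it was above 0 in each. The length-weighted and the protein-coding alternatives were chosen after seeing the data. Of 99 values of single members under an alternative, 88 stayed within 0.1 of the reported value, 6 moved further and 5 changed sign, where a reported 0.00 was counted as having no sign. That concerns AKR1A1 in the precursor comparison, which ran from -0.17 to 0.03. AKR1A1 in the antimir comparison turned to -0.03 without the filter on low values, -0.03 without centring, -0.24 with protein-coding transcripts only and -0.04 with FPKM times transcript length. AKR1C3 in the precursor comparison turned to -0.05 with FPKM times transcript length. AKR1C2 in the antimir comparison ran from 0.09 (protein-coding transcripts, without the unlisted ENST00000407674.1) to 0.77 (most abundant transcript). It was 0.71 with a pseudocount of 0.1 and did not reach a mean FPKM of 5. The cause was not tested.

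The number of all genes past 1.5-fold, 1135 with the precursor and 1131 with the antimir, became 625 and 622 at a mean FPKM of at least 5, 185 and 380 with protein-coding transcripts only, and 343 and 498 with FPKM times transcript length, each of which tests fewer genes or entries. No replicate could be left out, as each group is 1 library. No paired analysis was possible because the labels carry no replicate numbers and each group holds 1 library.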
